A study of Mus musculus with 88 samples.

Results

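#8520 is labelled a radiation-induced fibrosarcoma of the C3H mouse, and it was grown as a transplant in the hind leg of C3H/HeNrs mice. The subject here is how its transcriptome differed between carbon ions and gamma rays at an equal dose of 30 Gy. Carbon ions are heavy charged particles that deposit energy densely along their track, and gamma rays deposit it sparsely. The carbon-ion arm held untreated tumours and tumours taken 6 h, 1 day and 3 days after 30 Gy of carbon ions, given at the middle of a spread-out Bragg peak. The gamma arm held its own untreated tumours and tumours taken at the same 3 times after 30 Gy of gamma rays, the reference beam of the design. Each of these 8 groups had 2 arrays, so that 16 of the 88 arrays of the series entered, chosen by tumour, beam, dose and time from their titles. The other arrays were those of 3 more transplanted tumours (NR-S1, SCCVII and NFSa) and of #8520 after 50 Gy of gamma rays.

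The measure throughout is the beam difference. It is the log2 change from the carbon arm's untreated tumours to carbon-irradiated tumours, minus the log2 change from the gamma arm's untreated tumours to gamma-irradiated tumours at the same time. A positive value means that carbon ions raised the transcript more, or lowered it less, than gamma rays did. Levels are deposited array intensities on a linear scale, on which a typical probe lies near 1. No level of a gene is set against that of another gene. A gene passed where its Benjamini-Hochberg adjusted p from limma, taken over all genes of a comparison, was under 0.05.

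Ionising radiation breaks DNA, and the breaks activate p53, which switches on cell-cycle inhibitors and repair genes and, through them, stops transcription of genes for mitosis. Damaged cells and incoming lymphocytes can start an interferon response, in which STAT and IRF proteins bind promoters of antiviral GTPases, chemokines and antigen-processing genes. Dying cells also draw in neutrophils, whose secreted alarmins and receptors mark their presence in a tumour.

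RNA was total RNA, labelled with Cy5 in a single colour. Array medians of the 16 arrays lay between 1.05 and 1.07, and 200 to 605 of 36227 probes had no value on an array. Within a group, log2 values of both arrays had a correlation of 0.996 to 0.997 across genes. Whether they stand for different animals is not in the labels, and the p-values then measure only array-to-array spread, which may be technical. The gamma arrays of day 1 are numbered 3 and 4 in the titles, and all others 1 and 2. The label of #8520 was checked against markers. Untreated tumours had intensities of 206 in the carbon arm and 244 in the gamma arm for Col3a1, a fibrillar collagen, and 212 in the carbon arm and 187 in the gamma arm for Fn1, fibronectin. The basal keratin Krt5 had 0.215 in the carbon arm and 0.307 in the gamma arm of #8520, against 526 and 211 in those arms of NR-S1. In SCCVII, labelled SCC (squamous cell carcinoma) like NR-S1, Krt5 had 0.345 and 0.308. Krt14 had 0.149 in the carbon arm and 0.138 in the gamma arm of #8520. Col3a1 was similar in NR-S1 (246 and 192) and SCCVII (275 and 212). The collagen Col1a1 was lower in #8520 (9.54 and 5.73) than in the fibrosarcoma NFSa (36.1 and 24.5). These markers thus do not tell #8520 from all the other tumours. Replicate 1 of the untreated gamma tumours stood apart from its partner, with a summed intensity of skeletal muscle genes of 756 in replicate 1 and 1050 in replicate 2. All beam differences rest on these arrays, so counts over all genes are also given without each of them. List results are given for many, not all, of the cases where leaving out 1 array moved them by more than 1.5 times.

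The untreated tumours of the arms were themselves not alike, and every beam difference contains that gap. Between untreated tumours of the carbon arm and of the gamma arm, 18.3% of 13441 genes were higher and 17.3% lower in the carbon arm, 216 of them by 2-fold or more. Eef2, a translation elongation factor, was higher in the carbon arm by 1.91 ± 0.23 on the log2 scale (SE), and App, the amyloid precursor protein, by 1.75 ± 0.17. Ino80b, a chromatin remodelling subunit, had 2.298 and 2.27 in the carbon arm and 18.98 and 23.2 in the gamma arm. The untreated gamma arrays were the only ones of the 16 in which it was high, since irradiated arrays had 1.80 to 3.13. Its beam differences of 3.54, 3.61 and 3.57 at the 3 times therefore repeat the same gap between untreated arrays (limma adjusted p = 0.011, 0.0056 and 0.027). At day 3 it lost the threshold without any 1 of the 8 arrays (3.42 to 3.71, adjusted p = 0.053 to 0.084). Endou, an endoribonuclease, was lower in the carbon arm among untreated tumours, a difference of -3.19 ± 0.13. At day 3 it had 0.829 and 0.799 after carbon ions and 2.05 and 2.12 after gamma rays, yet a beam difference of 1.83 ± 0.19, because it had 0.285 and 0.272 in the untreated carbon arm and 2.25 and 2.87 in the untreated gamma arm. Among other genes whose beam difference passed while the irradiated arrays did not differ in that direction were Mkrn2 (a ubiquitin ligase), Pex13 (peroxisome import) and Klc3 (a kinesin light chain), all high in the untreated gamma arrays. Rasgrp3, Stag3 and Septin4, which lack a value on replicate 1 of them, and Olfr633 and Cmc1 were low there and had negative beam differences of the same kind at 1 time or more. Several of these rest on single arrays: Mkrn2 at day 3 was 1.46 (adjusted p = 0.14) without replicate 2 of the untreated gamma arm, Stag3 at 6 h -1.29 (adjusted p = 0.12) without replicate 1 of the carbon arrays, and Olfr633 at day 1 -1.05 (adjusted p = 0.055) without replicate 2 of the carbon arrays. Whether the untreated gap came from the animals, the day or the handling was not tested.

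For that reason each result below was also read from the direct difference, carbon-irradiated minus gamma-irradiated tumours with no untreated arrays. The direct difference subtracts no gap between the arms, so any standing difference between them stays in it. At 6 h the beam difference passed in 10.1% of 13440 genes as higher and 8.65% as lower, and the direct difference in 19.7% and 24.2%. At day 1 the shares were 27.3% and 8.26% of 13434 genes for the beam difference, and 40.7% and 15% for the direct difference. At day 3 they were 4.06% and 2.51% of 13440 genes, and 18.8% and 20.8% directly. Of the 2519, 4780 and 882 genes that passed at 6 h, day 1 and day 3, the direct difference passed with the same sign in 1778, 3425 and 623. At 6 h 1357 genes were higher and 1162 lower, against 1172 and 616 without replicate 1 of the untreated gamma arm and 1102 and 1368 without replicate 2. At day 1 it was 3670 higher and 1110 lower, against 4049 and 963 without replicate 1 and 2384 and 840 without replicate 2. At day 3 it was 545 higher and 337 lower, against 418 and 131 without replicate 1 and 401 and 447 without replicate 2. At 6 h and day 3 more genes were thus lower than higher without replicate 2 of that arm, and fewer with both arrays or without replicate 1. The beam differences of the 3 times use the same 4 untreated arrays and are not independent of one another. At day 1 the median beam difference of all genes was 0.18, and after quantile normalization -0.03. With it the share of higher genes among those that passed moved from 76.8% to 48.5%, and the shares of all genes became 13.4% higher and 14.2% lower. Day 1 medians of gene lists are therefore also given relative to the median of all genes.

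The beam differences of 8 lists are drawn together, member by member. Most interferon-stimulated genes lay above zero at 6 h and below it at day 1, most neutrophil markers above it at both times, and most mitosis genes above it at day 1.

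**Figure D1:**
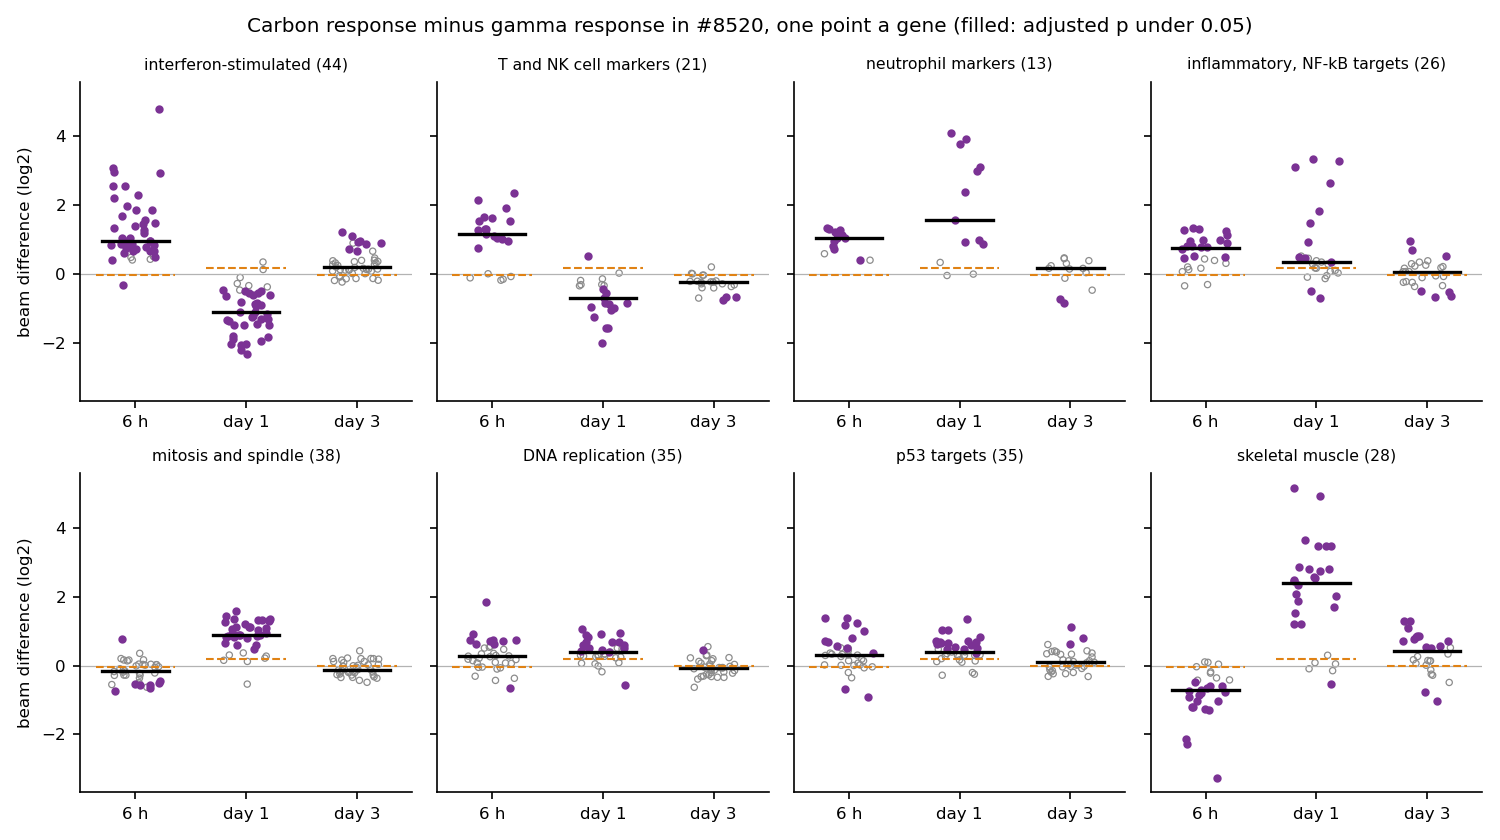
Beam difference (log2, vertical axis) of each tested member of 8 gene lists at 6 h, day 1 and day 3. Filled points passed the limma test, the black bar is the list median and the orange dashed line the median of all genes. The interferon list has its median at 0.97 at 6 h, -1.09 at day 1 and 0.20 at day 3.

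At 6 h after irradiation, interferon-stimulated transcripts were far higher in carbon-irradiated than in gamma-irradiated #8520. Of 43 tested members of a list of 50, 38 were higher and 1 lower, with a median beam difference of 0.97, where 10.1% of all genes were higher. The leading genes were guanylate-binding proteins, interferon-induced GTPases that attack membranes of intracellular microbes, and chemokines. Carbon-irradiated tumours stayed near their untreated level and gamma-irradiated tumours lay below theirs, with median changes of -0.12 after carbon ions and -1.09 after gamma rays.

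Gbp8 had 16.1 and 16.1 at 6 h after carbon ions, against 0.585 and 0.501 after gamma rays, and its untreated arrays had 12.5 and 12.1 in the carbon arm and 11.3 and 11.8 in the gamma arm. The gamma-irradiated arrays were far below the carbon-irradiated and untreated ones, which lay close together. The beam difference was 4.80 ± 0.17 (log2 ± SE, adjusted p = 3.6e-29). Gbp2 had 23.02 and 22.4 after carbon ions, against 1.63 and 1.98 after gamma rays, with 24.3 and 26.6 in the untreated carbon arm and 16.8 and 16.9 in the untreated gamma arm. Carbon-irradiated arrays lay between the untreated arms and gamma-irradiated arrays far below both, with a beam difference of 3.06 ± 0.23 (adjusted p = 3.8e-15). Cxcl9, a chemokine that attracts T cells through CXCR3, had 56.1 and 52.5 after carbon ions, against 8.09 and 7.91 after gamma rays. Its untreated arrays had 57.9 and 55.6 in the carbon arm and 56.96 and 75.3 in the gamma arm, so that the carbon-irradiated arrays lay within or just below the untreated range and the gamma-irradiated arrays far below it. The beam difference was 2.97 ± 0.14 (adjusted p = 4.7e-23). Gbp4 and Gbp3 followed with 2.93 ± 0.12 and 2.55 ± 0.25. Serpina3f, a serine protease inhibitor, had 2.58 ± 0.14, and Acod1, which makes itaconate in macrophages, 2.62 ± 0.22.

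Promoters of the interferon list are shown because many of them carry a sequence letter pattern that most promoters lack. The pattern searched was GAAANNGAA, on either strand, a core of the interferon-stimulated response element, in the 250 bases before the transcription start, from RefSeq on GRCm38.p6. Of 44 tested list members 31 had a promoter in that set, and 19 of them held the pattern (61.3%), against 2211 of 27025 genes (8.18%). A match describes the letters and does not show binding. The genes shown had the largest 6 h beam differences among list genes with the pattern once genes on 1 chromosome were left out. The promoters of Gbp2 (chr3:142620413-142620662, plus strand), Cxcl9 (chr5:92328080-92328329, minus strand) and Gbp3 (chr3:142559794-142560043, plus strand, 1 of 2 start sites) follow 5′ to 3′, with matches in capitals, on the opposite strand in Gbp2 and Gbp3. In Gbp3, 2 matches overlap.
Gbp2: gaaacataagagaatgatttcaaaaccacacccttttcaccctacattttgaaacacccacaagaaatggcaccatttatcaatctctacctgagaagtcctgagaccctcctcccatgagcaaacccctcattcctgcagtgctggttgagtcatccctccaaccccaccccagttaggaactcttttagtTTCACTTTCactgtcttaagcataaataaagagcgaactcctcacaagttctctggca
Cxcl9: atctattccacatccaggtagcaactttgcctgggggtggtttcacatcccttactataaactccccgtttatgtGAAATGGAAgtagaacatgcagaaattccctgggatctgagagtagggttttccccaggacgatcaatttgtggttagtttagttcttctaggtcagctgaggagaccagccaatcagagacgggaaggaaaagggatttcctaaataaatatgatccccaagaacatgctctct
Gbp3: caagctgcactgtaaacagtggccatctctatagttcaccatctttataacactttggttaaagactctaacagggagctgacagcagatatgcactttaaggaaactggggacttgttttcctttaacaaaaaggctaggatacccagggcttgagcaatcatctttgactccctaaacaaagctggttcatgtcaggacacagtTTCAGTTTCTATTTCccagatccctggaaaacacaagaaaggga

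Genes for showing antigen to T cells moved with them, at a time when 10.1% of all genes were higher and 8.65% lower. Of 9 tested genes of MHC class I antigen processing 5 were higher at 6 h and none lower, or 3 without replicate 2 of the untreated gamma arm. Tap1, a subunit of the peptide transporter, had 10.7 and 11.1 after carbon ions and 2.65 and 2.87 after gamma rays, with 11.4 and 9.82 in the untreated carbon arm and 10.4 and 12.7 in the untreated gamma arm. The gamma-irradiated arrays alone were low, with a beam difference of 2.10 ± 0.17. Its partner Tap2 had 0.89 ± 0.15, and the immunoproteasome subunit Psmb9 1.18 ± 0.23 with 1 untreated gamma array, since replicate 1 had no value. Of 19 tested genes of MHC class II and dendritic cells, 10 were higher and 3 lower, with 1 lower without either 6 h carbon array, replicate 1 of the 6 h gamma arrays or replicate 1 of the untreated gamma arm. Cd74, the invariant chain that guards class II molecules, had 69.4 and 65.98 after carbon ions and 25.7 and 27.6 after gamma rays, a beam difference of 1.46 ± 0.17. H2-Ab1, a class II chain, had 1.73 ± 0.14, which did not pass with the mean of all its probes (0.77, adjusted p = 0.25). Cd83, a marker of mature dendritic cells, had 2.38 and 2.39 after carbon ions and 0.452 and 0.389 after gamma rays, with 0.737 and 0.7004 in the untreated carbon arm and 0.723 and 0.855 in the untreated gamma arm. Unlike the guanylate-binding proteins, it stood above the untreated level after carbon ions and below it after gamma rays, and its beam difference was 2.64 ± 0.22.

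Transcripts of cytotoxic lymphocytes were higher as well. Of 21 tested T and NK cell markers 16 were higher at 6 h and none lower, where 10.1% of all genes were higher. The median beam difference of the list was 1.16. Gzmb, the apoptosis-inducing granzyme B, had 2.04 and 1.96 after carbon ions and 0.418 and 0.434 after gamma rays, and Gzma, granzyme A, 12.7 and 12.9 after carbon ions and 3.26 and 3.05 after gamma rays. In both genes the carbon-irradiated and gamma-irradiated arrays did not overlap, and the beam differences were 2.34 ± 0.31 and 1.91 ± 0.20. Ccl5, a chemokine made by activated T and NK cells, had 2.15 ± 0.18. The summed intensity of the list was 86.5 and 87.5 after carbon ions and 33.6 and 34.95 after gamma rays, with 70.5 and 70.4 in the untreated carbon arm and 69.8 and 75.5 in the untreated gamma arm. The defining T cell marker Cd3e had 0.0757 and 0.0904 in the same irradiated groups, near the bottom of the scale, and was not tested. In bulk tumour RNA, fewer cells of a type and less RNA per cell cannot be told apart.

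Skeletal muscle transcripts moved the opposite way at 6 h, and the tumours had grown in the leg. Of 28 tested muscle genes of a list of 35, 19 were lower and none higher, with a median beam difference of -0.72, where 8.65% of all genes were lower. The summed intensity of the list was 1237 and 1259 after carbon ions and 1843 and 2014 after gamma rays, with 938 and 934 in the untreated carbon arm and 756 and 1050 in the untreated gamma arm. Acta1, the defining actin of muscle, had 185 after carbon ions and 194 after gamma rays. The part of muscle in the interferon, lymphocyte and antigen-processing results at 6 h was not tested. Some of the genes with the largest gaps are known from developing and regenerating muscle. Myod1, the transcription factor that sets the muscle lineage, had 1.41 and 1.49 after carbon ions, against 15.6 and 17.1 after gamma rays and 2.38 to 2.86 in untreated tumours. Gamma-irradiated arrays alone were high, and the beam difference was -3.26 ± 0.13 (adjusted p = 7.3e-26). Mylk4, a myosin light chain kinase, had 0.911 and 0.744 after carbon ions and 14.1 and 15.4 after gamma rays, and Mstn, the muscle growth inhibitor myostatin, 0.603 and 0.603 after carbon ions and 5.27 and 5.15 after gamma rays. Their beam differences were -3.94 ± 0.18 and -3.05 ± 0.23. Tcap and Myoz1, proteins of the Z-disc, had -2.39 ± 0.16 and -2.14 ± 0.12, and Myl1, a fast myosin light chain, -2.28 ± 0.18. Six2, a developmental transcription factor, and Ppp1r1a, an inhibitor of protein phosphatase 1, had -2.41 ± 0.19 and -2.56 ± 0.28. Retnla, a secreted protein of alternatively activated macrophages, had -2.29 ± 0.54, which did not pass without replicate 2 of the untreated carbon arm (-1.43, adjusted p = 0.068).

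Inflammatory and neutrophil transcripts were higher after carbon ions too at 6 h, when 10.1% of all genes were higher and 8.65% lower. Of 26 tested inflammatory cytokines and NF-kB targets 17 were higher and none lower, with a median beam difference of 0.75. The direct difference had a median of 0.28, with 14 higher and 1 lower, where 19.7% of all genes were higher and 24.2% lower. Il1b, interleukin 1 beta, had 59.7 and 67.1 after carbon ions and 35.3 and 32.4 after gamma rays, with 14.6 and 11.2 in the untreated carbon arm and 15.1 and 18.3 in the untreated gamma arm. Both irradiated groups lay above the untreated arrays without overlap between them, and the beam difference was 1.29 ± 0.21. Cxcl1, a neutrophil-attracting chemokine, had 1.31 ± 0.19 and Nfkbiz, a nuclear regulator of NF-kB, 1.34 ± 0.20. Of 13 tested neutrophil markers 11 were higher and none lower, with a median of 1.05. Retnlg, a resistin-like protein of neutrophils, had 70.9 and 70.5 after carbon ions and 22.2 and 19.9 after gamma rays, with 2.62 to 4.23 in untreated tumours, a beam difference of 1.34 ± 0.15. Il1r2, the decoy interleukin 1 receptor, had 1.31 ± 0.25, and Hdc, which makes histamine, 1.28 ± 0.17. The list summed to 328 and 322 after carbon ions and 147 and 166 after gamma rays, with 43.5 and 44.4 in the untreated carbon arm and 42.9 and 47.5 in the untreated gamma arm.

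Among immediate-early genes, which are transcribed within minutes of a stimulus, 12 of 25 were higher at 6 h and 2 lower. Over all genes 10.1% were higher and 8.65% lower, so the share of lower members was near that of all genes. Fos, a subunit of AP-1, had 2.79 and 2.72 after carbon ions and 0.409 and 0.376 after gamma rays, with 0.962 and 0.994 in the untreated carbon arm and 0.515 and 0.482 in the untreated gamma arm. Carbon ions put it above its own untreated arrays and gamma rays below theirs, a beam difference of 1.84 ± 0.24. Atf3, a stress-induced repressor, had 1.20 ± 0.15 and Klf6, a zinc-finger factor, 0.97 ± 0.16.

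Of 35 tested p53 targets, 11 were higher at 6 h and 2 lower, where 10.1% of all genes were higher and 8.65% lower. The median of the list was 0.31. The direct difference had a median of 0.07 with 12 higher and 4 lower, where 19.7% of all genes were higher and 24.2% lower. Mdm2, the ubiquitin ligase that p53 induces against itself, had 13.7 and 15.4 after carbon ions, against 4.25 and 4.66 after gamma rays, with 4.56 and 4.28 in the untreated carbon arm and 3.496 and 2.85 in the untreated gamma arm. The carbon-irradiated arrays alone were high, and the beam difference was 1.23 ± 0.29 (adjusted p = 0.0014). Cdkn1a, the p21 inhibitor of cyclin-dependent kinases, had 99.4 and 113 after carbon ions and 107 and 85.1 after gamma rays, with 37.5 and 42.8 in the untreated carbon arm and 43.4 and 45.1 in the untreated gamma arm. Both irradiated groups stood above the untreated arrays and overlapped each other, and the beam difference was 0.29 ± 0.27 (adjusted p = 0.5). At day 1 and day 3 it was 0.10 ± 0.27 and 0.11 ± 0.27 (adjusted p = 0.81 and 0.86), and that of Mdm2 0.39 ± 0.29 and 0.42 ± 0.29 (adjusted p = 0.3 and 0.42). Ercc5, an excision repair nuclease, was higher at all 3 times, with 1.39 ± 0.20, 1.03 ± 0.20 and 1.12 ± 0.20, and Ei24, a p53-induced membrane protein, had 1.37 ± 0.17 at 6 h. Ccng1, cyclin G1, had 0.14 ± 0.18, 0.48 ± 0.18 and -0.24 ± 0.18 at the 3 times, and only the day 1 value passed (adjusted p = 0.037). It did not pass after quantile normalization (0.20), on the 16 arrays alone, or without replicate 2 of the untreated carbon (0.41), untreated gamma (0.33) or day 1 carbon arrays (0.38), or replicate 4 of the day 1 gamma arrays (0.43).

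Mitosis and spindle genes hardly separated the beams at 6 h, when 10.1% of all genes were higher and 8.65% lower. They were mostly below the untreated level after both beams. Of 38 tested, 1 was higher and 7 lower (4 lower without replicate 2 of the 6 h gamma arrays), with a median beam difference of -0.17 against median changes from untreated tumours of -1.09 after carbon ions and -0.84 after gamma rays. Tpx2, a spindle assembly factor, had 12.8 and 12.1 after carbon ions and 14.2 and 14.3 after gamma rays, with 30.9 and 32.7 in the untreated carbon arm and 20.4 and 26.1 in the untreated gamma arm, a beam difference of -0.66 ± 0.14. Espl1, separase, had -0.74 ± 0.17, while its direct difference was 0.06, since its untreated carbon arrays were higher (9.62 and 9.68 in the carbon arm against 5.12 and 5.97 in the gamma arm). Bub1b, a spindle checkpoint kinase, had 0.77 ± 0.23. Its untreated carbon arrays disagreed (4.76 and 2.3), and without replicate 2 the value was 0.25 (adjusted p = 0.46). It did not pass either without replicate 2 of the 6 h carbon arrays (0.71) or replicate 1 of the untreated gamma arm (0.66). Genes of sterol and fatty acid synthesis were lower in 10 of 26 and higher in 1, or in 3 without replicate 1 of the untreated carbon arm or replicate 2 of the 6 h gamma arrays. Idi1 and Fdft1, enzymes of the mevalonate and squalene steps, had -1.19 ± 0.19 and -1.10 ± 0.18, and Srebf1, the regulator of fatty acid synthesis, 1.24 ± 0.22.

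The summed levels of 8 lists show these shifts array by array, with the untreated arms at the left of each panel.

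**Figure D2:**
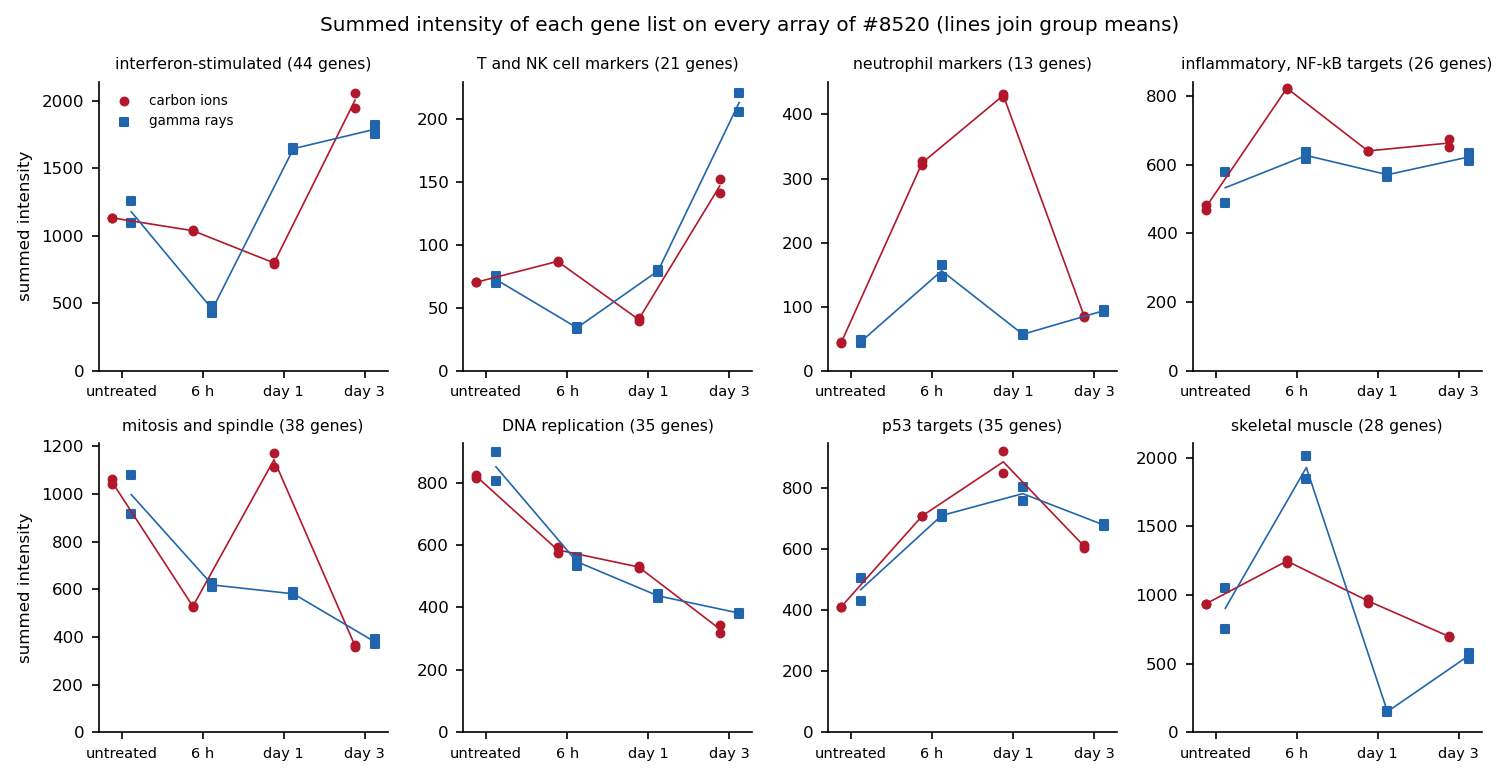
Summed deposited intensity of the tested members of gene lists (vertical axis) on each array of #8520, carbon arm as circles and gamma arm as squares, untreated and 6 h, day 1 and day 3 after 30 Gy. Interferon-stimulated genes lie lowest in gamma-irradiated tumours at 6 h and in carbon-irradiated tumours at day 1, and muscle genes lowest in gamma-irradiated tumours at day 1.

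At day 1 the interferon difference had turned round. Of 43 tested members none was higher and 36 were lower after carbon ions than after gamma rays, where 27.3% of all genes were higher and 8.26% lower. Their median was -1.09, or -1.27 relative to the median of all genes, and after quantile normalization 40 were lower and none higher. The summed intensity was 794 and 805 after carbon ions and 1651 and 1638 after gamma rays, and at 6 h it had been 1043 and 1032 after carbon ions and 481 and 431 after gamma rays. At the same time the median change from untreated tumours was -0.42 after carbon ions and 0.48 after gamma rays.

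Mx1, an antiviral GTPase, had 6.83 and 8.43 at day 1 after carbon ions, against 33.2 and 38.6 after gamma rays, with 7.39 and 7.71 in the untreated carbon arm and 7.63 and 7.89 in the untreated gamma arm. Only the gamma-irradiated arrays were high, and the beam difference was -2.20 ± 0.19 (adjusted p = 6.9e-14). Cxcl10, an interferon-induced chemokine for T cells, had 26.1 and 25.99 after carbon ions, against 143 and 152 after gamma rays, with 71.6 and 60.1 in the untreated carbon arm and 73.8 and 109 in the untreated gamma arm. Here carbon-irradiated arrays lay below and gamma-irradiated arrays above all untreated ones, a beam difference of -2.04 ± 0.16. Isg15, a ubiquitin-like interferon product, had 0.688 and 0.617 after carbon ions and 2.17 and 2.03 after gamma rays, with all untreated arrays between them and a beam difference of -2.04 ± 0.23. Cmpk2, a mitochondrial nucleotide kinase, and Gbp5 had -2.33 ± 0.31 and -2.05 ± 0.18. Gbp8, the leading gene at 6 h, had 1.29 and 1.296 after carbon ions and 3.06 and 3.72 after gamma rays at day 1, a beam difference of -1.47 ± 0.17. MHC class I genes were lower in 3 of 9 and higher in none, with 1 lower without replicate 1 of the day 1 carbon arrays, replicate 1 of the untreated gamma arm or replicate 4 of the day 1 gamma arrays. Class II and dendritic cell genes were lower in 3 of 19 and higher in 2, with 1 lower without replicate 2 of the untreated carbon arm or replicate 1 of the untreated gamma arm.

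Lymphocyte markers followed the same turn, with 13 of 21 T and NK cell markers lower and 1 higher at day 1. Over all genes 27.3% were higher and 8.26% lower. The median of the markers was -0.68, or -0.86 relative to all genes. Klrk1, the activating NK receptor NKG2D, had 0.8898 and 0.852 after carbon ions, against 3.39 and 2.96 after gamma rays and 2.60 to 3.02 in untreated tumours. Carbon-irradiated arrays alone were low, and the beam difference was -1.99 ± 0.25. Klrd1, the CD94 subunit of NK receptors, had -1.57 ± 0.28, and Gzma had 4.41 and 4.45 after carbon ions and 10.9 and 13.5 after gamma rays, a beam difference of -1.56 ± 0.20. Cd69, an early activation marker of lymphocytes, had 5.53 and 5.47 after carbon ions and 25.2 and 24.9 after gamma rays, a beam difference of -2.11 ± 0.12. The list summed to 39.7 and 41.9 after carbon ions and 80.5 and 78.5 after gamma rays. Outside the lists, Lhx4, a homeobox factor, had 1.804 and 1.83 after carbon ions and 12.1 and 11.8 after gamma rays, and Inmt, an indole methyltransferase, 4.35 and 4.08 after carbon ions and 17.96 and 15.9 after gamma rays. Their beam differences were -3.002 ± 0.17 and -2.02 ± 0.43.

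Neutrophil transcripts stayed high after carbon ions and not after gamma rays. At day 1, 10 of 13 markers were higher and none lower, where 27.3% of all genes were higher. The list median was 1.57, or 1.39 relative to all genes. S100a8 and S100a9 form calprotectin, an abundant protein of the neutrophil cytosol. S100a8 had 129 and 124 after carbon ions, against 9.79 and 9.85 after gamma rays and 5.83 to 7.62 in untreated tumours. S100a9 had 147 and 132 after carbon ions, against 13.2 and 11.4 after gamma rays and 5.88 to 7.76 in untreated tumours. In both, the carbon-irradiated arrays were many times above all others while gamma-irradiated arrays lay above but near the untreated range, with beam differences of 3.92 ± 0.15 and 3.77 ± 0.16 (adjusted p = 3.0e-28 and 1.4e-25). Retnlg had 99.1 and 112 after carbon ions and 5.02 and 4.23 after gamma rays, a beam difference of 4.10 ± 0.15. The list summed to 432 and 427 after carbon ions and 58.1 and 56.1 after gamma rays.

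Chemokines that attract neutrophils through CXCR2 moved alongside. Cxcl2 had 26.6 and 24.9 after carbon ions, against 2.28 and 2.87 after gamma rays and 1.83 to 2.51 in untreated tumours. Carbon-irradiated arrays alone were high, and the beam difference was 3.34 ± 0.23. Cxcl3 had 3.11 ± 0.18, and Ptx3, a soluble pattern-recognition protein, 3.29 ± 0.17. Of the 26 inflammatory genes 10 were higher and 2 lower, and after quantile normalization 7 and 3. Of all genes, 27.3% were higher and 8.26% lower at day 1, and 13.4% and 14.2% after quantile normalization. Macrophage and monocyte markers did not move as a list, with 5 of 24 higher and 5 lower (3 lower without replicate 1 of the untreated gamma arm), although the scavenger receptor Marco had 1.97 ± 0.15 and the chitinase-like Chil3 1.83 ± 0.15. Adgre1, the macrophage marker F4/80, had -1.26 ± 0.19, but its direct difference was 0.13, since its untreated arms differed (2.14 and 2.16 in the carbon arm and 0.794 and 0.848 in the gamma arm). Of 8 mast cell genes 4 were higher and none lower, where 27.3% of all genes were higher. They included the IgE receptor chain Fcer1a (1.14) and the granule proteases Cpa3 (1.11) and Mcpt4 (1.11).

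Mitosis genes, low after both beams at 6 h, were near the untreated level in carbon-irradiated tumours at day 1 and below it in gamma-irradiated tumours. Of 38 tested, 31 were higher and none lower, where 27.3% of all genes were higher. The median beam difference of the list was 0.89, or 0.72 relative to all genes. After quantile normalization, where 13.4% of all genes were higher, 28 were higher and none lower. The median change from untreated tumours was -0.14 after carbon ions and -0.97 after gamma rays. The list summed to 1114 and 1173 after carbon ions and 574 and 588 after gamma rays, with 1064 and 1040 in the untreated carbon arm and 916 and 1079 in the untreated gamma arm. Aurka, the Aurora A kinase of centrosomes, had 10.4 and 10.8 after carbon ions, against 3.095 and 3.25 after gamma rays, with 14.1 and 13.2 in the untreated carbon arm and 10.7 and 11.2 in the untreated gamma arm. Gamma-irradiated arrays alone were low, and the beam difference was 1.42 ± 0.18 (adjusted p = 5.4e-09). Cdc25b and Cdc25c, phosphatases that open the way into mitosis, had 1.57 ± 0.16 and 1.35 ± 0.18. Plk1, a mitotic kinase, had 2.095 and 2.095 after carbon ions and 0.811 and 0.917 after gamma rays, with 2.62 to 3.50 in untreated tumours, so that both irradiated groups were below the untreated range. Its beam difference was 1.21 ± 0.16 (adjusted p = 3.0e-08), with -0.05 ± 0.16 at 6 h and -0.19 ± 0.16 at day 3 (adjusted p = 0.86 and 0.54).

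Many mitotic promoters carry the cell cycle homology region, TTTGAA, bound by the complexes that repress these genes when p53 stops the cycle. The letters TTTGAA were found on either strand in 10 of the 32 list promoters in the set (31.2%), against 4934 of 27025 genes (18.3%). The promoters of Cdc20, which activates the anaphase-promoting complex, and Ube2c, its ubiquitin-conjugating enzyme, are shown. They had the largest day 1 beam differences among list genes with the letters once genes on 1 chromosome were left out. The choice was made after their values were seen. Cdc20 had 28.1 and 29.9 after carbon ions, against 14.02 and 12.9 after gamma rays, with 26.2 and 25.4 in the untreated carbon arm and 28.3 and 33.1 in the untreated gamma arm. Ube2c had 97.3 and 114 after carbon ions, against 51.1 and 44.5 after gamma rays, with 56.4 and 57.2 in the untreated carbon arm and 52.9 and 76.95 in the untreated gamma arm. In Cdc20 the gamma-irradiated arrays alone were low. In Ube2c the carbon-irradiated arrays lay well above all untreated ones, and the gamma-irradiated arrays below them. Cdc20 and Ube2c had beam differences of 1.35 ± 0.17 and 1.31 ± 0.17. Their promoters, chr4:118437344-118437593 on the minus strand and chr2:164769679-164769928 on the plus strand of GRCm38.p6, follow 5′ to 3′ with the match in capitals, read on the opposite strand in Ube2c.
Cdc20: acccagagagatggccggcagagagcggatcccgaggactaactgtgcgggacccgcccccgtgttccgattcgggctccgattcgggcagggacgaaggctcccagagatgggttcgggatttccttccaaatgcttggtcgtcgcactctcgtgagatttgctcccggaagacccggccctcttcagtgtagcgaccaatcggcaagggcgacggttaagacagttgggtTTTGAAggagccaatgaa
Ube2c: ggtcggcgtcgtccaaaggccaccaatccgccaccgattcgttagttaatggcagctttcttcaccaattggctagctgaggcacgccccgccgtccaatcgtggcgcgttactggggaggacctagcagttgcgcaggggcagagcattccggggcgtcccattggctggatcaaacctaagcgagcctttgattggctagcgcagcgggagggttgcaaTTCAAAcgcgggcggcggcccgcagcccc

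DNA replication and repair genes at day 1 depended on the scaling. Before quantile normalization 27.3% of all genes were higher and 8.26% lower. Of 35 replication genes 16 were higher and 1 lower, with a median of 0.40, or 0.23 relative to all genes. After quantile normalization 6 were higher and 1 lower, where 13.4% of all genes were higher and 14.2% lower. The share of higher genes was then near that of all genes, and the share of lower genes below it. Without replicate 2 of the untreated gamma arm 10 were higher. Prim2, a primase subunit, had 5.08 and 5.97 after carbon ions and 2.24 and 2.24 after gamma rays, with 7.70 to 10.5 in untreated tumours, a beam difference of 0.93 ± 0.14. Rpa2, which coats single-stranded DNA, had 1.06 ± 0.21. Of 29 repair genes 14 were higher and 1 lower, and after quantile normalization 6 and 1. Those higher were 7 without replicate 2 of the untreated gamma arm, 8 without replicate 2 of the day 1 carbon arrays and 9 without replicate 3 of the day 1 gamma arrays. The largest were Fanci (1.33), Parp2 (1.13) and Brca1 (1.11). The p53 targets were higher in 17 of 35 and lower in none, but in 9 and 3 after quantile normalization. Btg2, an antiproliferative p53 target, had 1.34 ± 0.18, and Gtse1, a microtubule protein that restrains p53, 1.02 ± 0.17.

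Muscle transcripts had the largest median beam difference of the 8 drawn lists at day 1, in the direction opposite to 6 h. Of 28 tested, 22 were higher and 1 lower after carbon ions, where 27.3% of all genes were higher and 8.26% lower. The list median was 2.39 (2.10 after quantile normalization). Myh4, the fast myosin heavy chain IIb, had 39.3 and 40.1 after carbon ions, against 1.07 and 1.44 after gamma rays, with 44.2 and 35.9 in the untreated carbon arm and 31.9 and 44.4 in the untreated gamma arm. Gamma-irradiated arrays alone were low, and the beam difference was 4.92 ± 0.21 (adjusted p = 1.4e-25). Pvalb, the calcium buffer parvalbumin of fast fibres, had 64.8 and 64.5 after carbon ions, against 2.62 and 2.23 after gamma rays, a beam difference of 5.17 ± 0.15. Ckm, muscle creatine kinase, had 3.64 ± 0.20, the muscle ribosomal protein Rpl3l 3.74 ± 0.20 and Xirp1, an actin-binding protein of muscle junctions, 3.54 ± 0.17. The summed muscle intensity was 941 and 974 after carbon ions and 149 and 154 after gamma rays, and 534 to 2014 on the other 30 Gy and untreated arrays. Acta1 had 155 after carbon ions and 22.5 after gamma rays. The gamma arrays of day 1 are those numbered 3 and 4, so that gamma rays at day 1 and whatever the numbering stands for cannot be told apart. The part of muscle in the other day 1 results was not tested.

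**Figure D3:**
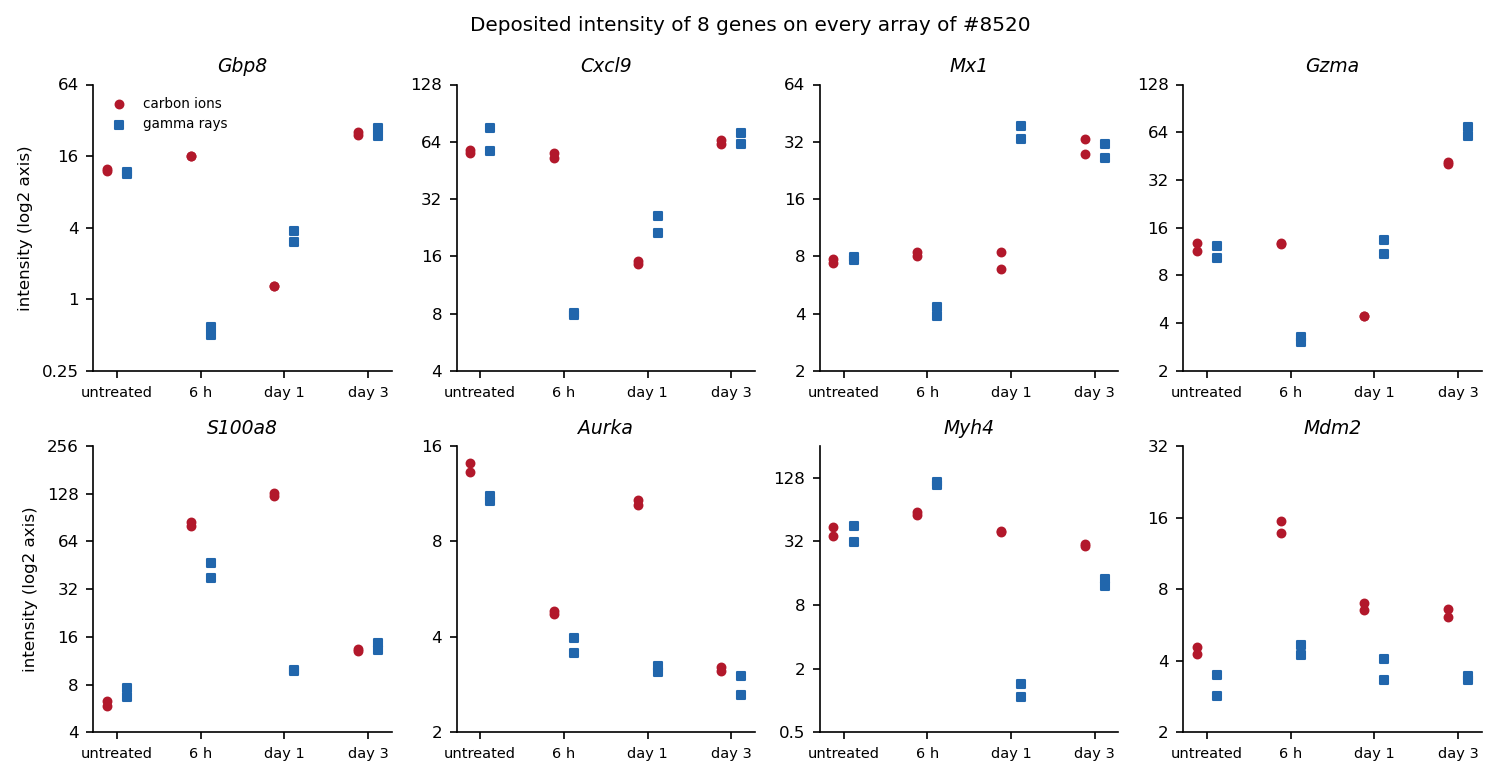
Deposited intensity (log2-spaced vertical axis) of 8 genes on each array of #8520, carbon arm as circles and gamma arm as squares, by time after 30 Gy. Gbp8 is below 1 only in gamma-irradiated tumours at 6 h, S100a8 at day 1 is high only in carbon-irradiated tumours, and Myh4 is near 1 only in gamma-irradiated tumours at day 1.

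Matrix and stress lists had members higher at day 1, when 27.3% of all genes were higher and 8.26% lower. Fewer members were higher after quantile normalization, where 13.4% of all genes were higher and 14.2% lower. Of 34 fibroblast and matrix genes 17 were higher and none lower, with a median of 0.50 or 0.33 relative to all genes, and 10 higher and 2 lower after quantile normalization. Without replicate 2 of the untreated gamma arm 11 were higher. The collagen-binding proteoglycans Lum and Fmod had 1.35 ± 0.20 and 1.99 ± 0.28, and the collagen cross-linking enzyme Lox 1.23 ± 0.15. Of 24 genes of the unfolded protein and heat shock response 16 were higher and none lower, and 12 after quantile normalization. Hspb1, a small heat shock protein, had 96.4 and 99.7 after carbon ions and 48.6 and 43.5 after gamma rays, a beam difference of 1.48 ± 0.17. The chaperones Hspa1a and Hspd1 had 1.44 ± 0.31 and 1.39 ± 0.19. Hypoxia and glycolysis genes were higher in 14 of 24 and lower in none, or 9 and 1 after quantile normalization. They included the glycolytic enzyme Pkm (1.42), the vasodilator peptide Adm (1.31) and the oxidoreductase Ero1a (1.17), which did not pass with the mean of its probes (0.85, adjusted p = 0.18). Of 25 oxidative stress genes 11 were higher and none lower, or 8 and 2 after quantile normalization, with the secreted glutathione peroxidase Gpx3 at 1.80 ± 0.16 and Osgin1, a growth inhibitor induced by oxidants, at 1.55 ± 0.22. Sterol genes were higher in 11 of 26 with a median of 0.29, which was 0.19 without replicate 2 of the untreated gamma arm and 0.05 after quantile normalization, when 6 were higher and 2 lower. Scd2, a fatty acid desaturase, had 1.24 ± 0.17.

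By day 3 fewer beam differences passed than at 6 h or day 1. The beam difference of the interferon list had a median of 0.20, with 8 of 43 higher and none lower, where 4.06% of all genes were higher. The median was 0.38 without replicate 1 and 0.09 without replicate 2 of the untreated gamma arm, with 7 and 8 higher. After quantile normalization 15 were higher and 1 lower. The list summed to 1947 and 2060 after carbon ions and 1822 and 1753 after gamma rays, in both beams above the 1135 and 1131 of the untreated carbon arm and the 1097 and 1258 of the untreated gamma arm. Gbp2 had 36.4 and 34.8 after carbon ions and 9.77 and 10.5 after gamma rays, a beam difference of 1.22 ± 0.23, and the antiviral genes Rsad2 and Ifit2 had 1.10 ± 0.22 and 0.96 ± 0.15. Gbp8 had 25.6 and 23.98 after carbon ions and 27.4 and 23.7 after gamma rays, groups that overlapped, and -0.13 ± 0.17 (adjusted p = 0.72). Of the 21 T and NK cell markers 3 were lower and none higher, where 2.51% of all genes were lower, and 1 was lower without replicate 1 of the untreated gamma arm or of the day 3 gamma arrays. Gzma had 40.4 and 41.3 after carbon ions, against 68.7 and 60.8 after gamma rays, both above the untreated 10.3 to 12.8. Its beam difference was -0.77 ± 0.20 (adjusted p = 0.011), and it did not pass without replicate 2 of the untreated carbon arm (-0.69), replicate 1 of the untreated gamma arm (-0.64) or replicate 1 of the day 3 gamma arrays (-0.68). Of the 19 class II and dendritic cell genes 6 were lower, among them the class II chains H2-Eb1 (-0.81) and H2-Aa (-0.74), and 3 without replicate 1 of the untreated gamma arm. H2-Aa did not pass without that array (-0.61) or without replicate 2 of the untreated carbon arm (-0.56). Of the neutrophil markers 2 of 13 were lower, Retnlg (-0.83) and S100a9 (-0.73). No mitosis gene passed at day 3 in either direction, with a median of -0.12 and median changes from untreated tumours of -1.61 after carbon ions and -1.55 after gamma rays. After quantile normalization 4 were lower.

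The genes with the largest day 3 differences belonged to no single list. Atoh8, a basic helix-loop-helix factor, had 2.94 and 3.08 after carbon ions, against 1.11 and 1.06 after gamma rays and 0.675 to 0.843 in untreated tumours. All irradiated arrays lay above the untreated ones, those of carbon ions higher, a beam difference of 1.71 ± 0.17 (adjusted p = 1.7e-09). Smad6, an inhibitor of BMP signalling, had 1.47 and 1.31 after carbon ions and 0.6195 and 0.623 after gamma rays, a beam difference of 1.54 ± 0.28. Sned1, a matrix glycoprotein, had 32.6 and 29.1 after carbon ions, against 10.6 and 10.7 after gamma rays and 2.40 to 2.81 in untreated tumours, a beam difference of 1.48 ± 0.15. Cd209f, a lectin related to DC-SIGN, had 1.51 ± 0.18, and the histone gene H4bc24 1.32 ± 0.17. Ndrg2, a stress-responsive gene of differentiated tissue, had 1.38 ± 0.22. Lower after carbon ions was Adipoq, adiponectin, with 0.337 and 0.371 after carbon ions and 1.24 and 1.31 after gamma rays, a beam difference of -1.77 ± 0.21. Prrg4, a vitamin K-dependent membrane protein, had -1.66 ± 0.19, and Gata5, a transcription factor of the endoderm and heart, -1.54 ± 0.35. The nuclear receptor Nr4a2 had 0.939 and 0.954 after carbon ions, against 4.26 and 4.66 after gamma rays, and Acer2, a ceramidase, 2.34 and 2.38 after carbon ions and 6.85 and 7.85 after gamma rays. Their beam differences were -1.33 ± 0.21 and -1.25 ± 0.25. Olfr143, an olfactory receptor gene, had -1.59 ± 0.38, with gamma-irradiated arrays of 6.38 and 15.1 that disagreed and -0.97 without replicate 2 of them, which no longer passed. Ddt, a tautomerase, had -1.07 ± 0.27, and did not pass without replicate 1 of the day 3 gamma arrays (-0.76), replicate 2 of the day 3 carbon arrays (-0.92) or replicate 1 of the untreated gamma arm (-0.96).

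Muscle and contractile genes divided at day 3. Of 28 muscle genes 12 were higher and 2 lower, where 4.06% of all genes were higher, with a median of 0.43. The median was 0.14 without replicate 2 of the untreated gamma arm, with 10 higher. Myot, myotilin of the Z-disc, had 2.37 and 2.55 after carbon ions and 1.06 and 1.14 after gamma rays, a beam difference of 1.29 ± 0.20, and Pygm, muscle glycogen phosphorylase, 1.28 ± 0.24. Nrap and Mypn, proteins of the sarcomere, had 1.33 ± 0.32 and 1.51 ± 0.38. Nrap did not pass without replicate 1 of the day 3 gamma arrays (0.88), replicate 1 of the untreated gamma arm (1.10) or replicate 2 of the untreated carbon arm (1.14). The untreated carbon arrays of Mypn disagreed (5.99 and 1.04), and without replicate 2 its value was 0.25 (adjusted p = 0.37). Myl2, the slow myosin regulatory light chain, was lower (-1.04 ± 0.25), but not past the threshold without replicate 1 of the untreated gamma arm (-0.92). Of the 34 matrix genes 1 was higher and 3 lower, where 4.06% of all genes were higher and 2.51% lower, and 2 were higher and 2 lower without replicate 1 of the untreated gamma arm. The smooth muscle and myofibroblast genes Acta2 and Tagln were among the lower ones. Acta2 had 24.6 and 24.99 after carbon ions, against 40.7 and 37.7 after gamma rays, with 135 and 121 in the untreated carbon arm and 85.9 and 118 in the untreated gamma arm. All irradiated arrays lay below the untreated ones, those of carbon ions lower, a beam difference of -1.005 ± 0.16, and Tagln had -0.90 ± 0.15.

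The change of the beam difference between 6 h and day 3 was tested on its own, since it needs no untreated arrays. It passed as higher in 4.94% and as lower in 5.42% of 13464 genes. Of 44 interferon-stimulated genes 32 were lower at day 3 than at 6 h and none higher, with a median of -0.73, and of 21 T and NK cell markers 17 were lower and none higher. Of 28 muscle genes 20 were higher and none lower. Gbp8 had the largest drop, -4.93 ± 0.17, followed by Ubd, a ubiquitin-like interferon target (-3.21 ± 0.18), Ccl5 (-2.83 ± 0.18), Cxcl9 (-2.82 ± 0.14) and Gbp4 (-2.80 ± 0.12). Mylk4 rose most (4.59 ± 0.18), with Myod1 (4.03 ± 0.13), Mstn (3.11 ± 0.23), Scn4b, a sodium channel subunit (3.09 ± 0.17), and the acute-phase protein Orm2 (3.06 ± 0.25).

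**Figure D4:**
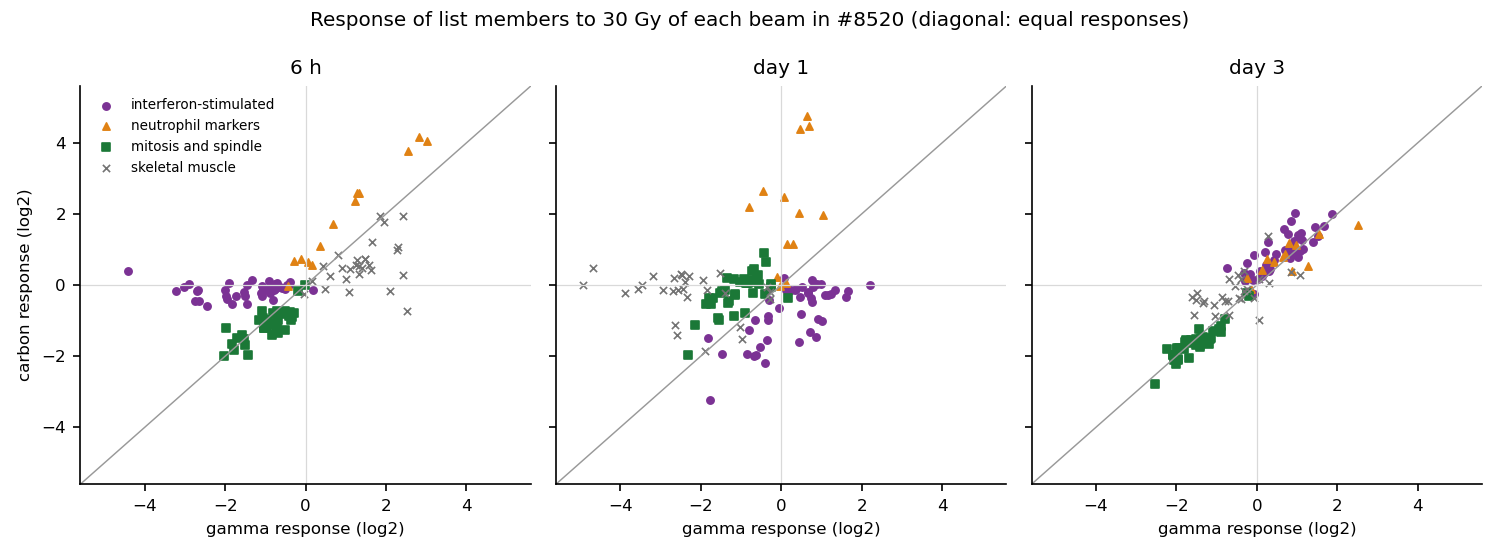
Change from untreated tumours after carbon ions (vertical axis, log2) against the change after gamma rays (horizontal axis, log2) for members of 4 lists at 6 h, day 1 and day 3, with the line of equal change. Most interferon genes lie above the line at 6 h and below it at day 1, with list medians of -0.12 after carbon ions and -1.09 after gamma rays at 6 h, and of -0.42 after carbon ions and 0.48 after gamma rays at day 1. The axes share no arrays.

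The same beam difference in the other tumours shows how far these patterns belong to #8520. At 6 h #8520 differed from the mean of NR-S1, SCCVII and NFSa in 6.25% of 13384 genes as higher and 5.36% as lower. At day 1 the shares were 24% and 7.32% of 13379 genes, and at day 3 7.93% and 9.02% of 13382. The day 1 imbalance depended on the scaling, since of 3208 higher and 979 lower genes after the deposited scaling there were 1468 and 1443 after quantile normalization, and the share of higher genes among those that passed was 50.4% in place of 76.6%. Of 43 interferon-stimulated genes, 34 had a higher beam difference in #8520 than in the mean of the other tumours at 6 h and none a lower one. At day 1, 42 had a lower one and none a higher one. The list median at day 1 was -1.09 in #8520, -0.67 in NR-S1, 1.11 in SCCVII and 1.56 in NFSa, and at 6 h it was 0.97 in #8520, -1.15 in NR-S1, 1.39 in SCCVII and -0.00 in NFSa. Cxcl9 at 6 h differed from the mean of the other tumours by 3.99 ± 0.17, and Gbp8 by 5.41 ± 0.19 at 6 h and by -4.74 ± 0.19 at day 1 (adjusted p = 1.2e-28 and 3.4e-26). T and NK cell markers were lower in #8520 than in that mean in 17 of 21 at day 1 and in 18 of 21 at day 3. Their median at day 1 was -0.685 in #8520, -0.13 in NR-S1, 1.64 in SCCVII and 1.95 in NFSa. At day 3 it was -0.24 in #8520, 2.12 in NR-S1, 0.15 in SCCVII and 2.72 in NFSa.

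The higher mitosis transcripts of day 1 were seen in #8520 and not in the other tumours. The list median was 0.89 in #8520, against -0.17 in NR-S1, -0.27 in SCCVII and -0.38 in NFSa, and 32 of 38 genes were higher in #8520 than in their mean and none lower. At day 3, 14 were higher and none lower. Muscle lists differed between tumours without a common direction. At day 1 the median was 2.39 in #8520, 0.56 in NR-S1, -1.69 in SCCVII and 1.93 in NFSa, and at 6 h it was -0.72 in #8520, 1.74 in NR-S1, -2.46 in SCCVII and -0.12 in NFSa. Neutrophil markers were higher after carbon ions at day 1 in all 4 tumours by their medians (1.57 in #8520, 0.85 in NR-S1, 0.57 in SCCVII and 2.58 in NFSa). At day 3 the median was 0.16 in #8520, against 2.73 in NR-S1, 0.15 in SCCVII and 2.13 in NFSa. Of 13 markers 9 were then lower in #8520 than in the mean of the other tumours. Retnlg was then lower, with a difference of -3.82 ± 0.17, as were Jchain, the joining chain of antibodies, with -3.63 ± 0.27 and the apolipoprotein Apoc2 with -4.14 ± 0.20.

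**Figure D5:**
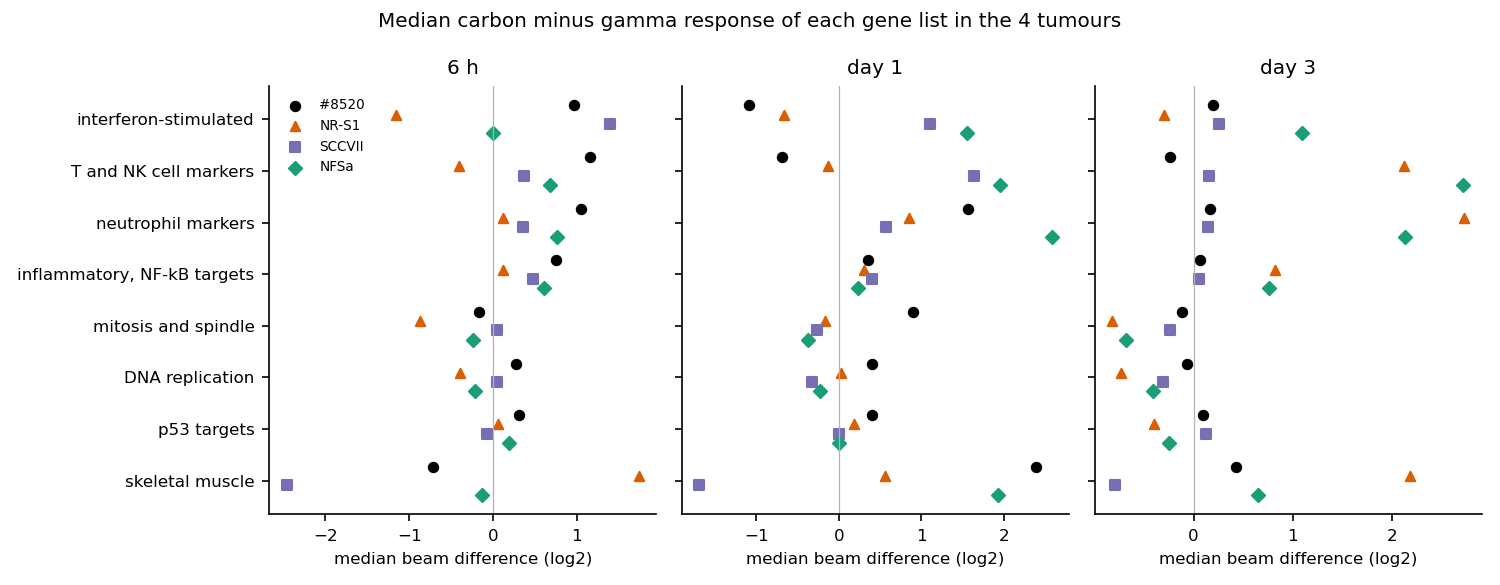
Median beam difference (log2, horizontal axis) of 8 gene lists in #8520, NR-S1, SCCVII and NFSa at 6 h, day 1 and day 3. The mitosis list at day 1 has a median of 0.89 in #8520, -0.17 in NR-S1, -0.27 in SCCVII and -0.38 in NFSa.

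Gamma rays of 50 Gy were given to #8520 as well, and the arrays are set beside those of 30 Gy. This was added after the data were seen. Interferon-stimulated genes summed to 380.5 and 371 at 6 h, 580 and 606 at day 1 and 1691 and 1834 at day 3 after 50 Gy of gamma rays. After 30 Gy of gamma rays they summed to 481 and 431, 1651 and 1638 and 1822 and 1753. After carbon ions they summed to 1043 and 1032, 794 and 805 and 1947 and 2060. Low levels at 6 h were thus seen at both gamma doses, and the high level of day 1 at 30 Gy only. At day 1 the carbon-irradiated arrays lay below those of 30 Gy and above those of 50 Gy of gamma rays. Mx1 had 6.23 and 6.36 at day 1 after 50 Gy and 33.2 and 38.6 after 30 Gy of gamma rays. T and NK cell markers at day 1 summed to 40.5 and 41.3 after 50 Gy, 80.5 and 78.5 after 30 Gy and 39.7 and 41.9 after carbon ions. Inflammatory genes at 6 h summed to 1191 and 1167 after 50 Gy, 617 and 636.5 after 30 Gy and 821 and 824 after carbon ions. Hypoxia and glycolysis genes at day 1 summed to 872 and 912 after 50 Gy, 643 and 679 after 30 Gy and 924 and 948 after carbon ions. Neutrophil markers at 6 h summed to 549 and 545 after 50 Gy, 147 and 166 after 30 Gy and 328 and 322 after carbon ions. The carbon-irradiated arrays were thus above those of 30 Gy and below those of 50 Gy of gamma rays. At day 1 the list summed to 61.1 and 63.3 after 50 Gy, as low as after 30 Gy, and to 432 and 427 after carbon ions. Mitosis genes summed to 504 and 502 at day 1 after 50 Gy, 574 and 588 after 30 Gy and 1114 and 1173 after carbon ions. Muscle genes at day 1 summed to 158 and 156 after 50 Gy, 149 and 154 after 30 Gy and 941 and 974 after carbon ions. The day 1 arrays of 50 Gy too are numbered 3 and 4.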

How the data were processed

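Per the labels' protocols, total RNA was prepared with ISOGEN and RNeasy, and single-colour CodeLink labelling used Cy5. The deposited values are an intensity per probe on a linear scale. How background was subtracted and arrays were scaled is not given in the sources used here. Array medians were near 1, and the lowest value on the 16 arrays was -0.0674, so some background had been subtracted.

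Positive values were put on the log2 scale without renormalizing, and all others were treated as missing. GEO's platform annotation gave a single symbol for 21615 of 36227 probes, several for 681 and none for 13931. Only the first were named, after updating by Entrez number to RefSeq GRCm38.p6 names (21487 probes matched). The probe with the highest mean was kept for each of 18069 genes. Genes in the dimmest 25%, or with values on under 80% of arrays, were left out, and 13465 were tested. The number of arrays limits the precision.

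Differences were fitted with limma 3.58.1 (R 4.3.3, with data.table, version 1.17.8) in 1 model of all 44 groups of 2 arrays, with 44 residual degrees of freedom and a prior of 7.30. P-values are two-sided, adjusted by Benjamini-Hochberg over the genes of a comparison. The beam difference takes 4 groups, the direct difference 2, and the difference from other tumours the mean of the other 3. The fit was tested on simulated data with known changes.

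The comparison, the 26 gene lists and the rules were chosen with earlier results of these data known. Of 730 list genes 589 were tested. Named were the 8 genes with the largest beam difference each way whose direct difference passed with the same sign, the 3 largest each way whose direct difference did not, the 5 largest each way between day 3 and 6 h and between untreated arms, the 3 largest each way against other tumours, up to 3 members of a described list, and Cdkn1a, Mdm2, Ccng1 and Plk1. Predicted genes and genes below a log2 level of 0 in all 8 groups were passed over. Alternatives were quantile normalization, median centring, an offset of 0.0314 before log2, no filter on dim genes or the dimmest 50% left out, the mean of all probes, the 16 arrays alone, a trended robust prior, a 1.5-fold null, the direct difference, a replicate block and leaving out each array. Gamma rays of 50 Gy in place of 30 Gy were added after seeing the data.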

Additional observations from a re-analysis of the deposited data

Results flagged for a closer look

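In 28 results the beam difference differed between times, or between tumours, by limma's test of that difference. Values are log2 with limma's adjusted p.

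Between day 3 and 6 h in #8520 the beam difference was higher at day 3 for Mylk4 (4.59, adjusted p = 2.6e-27), Myod1 (4.03, 5.0e-30), Mstn (3.11, 6.5e-16), Scn4b (3.09, 1.5e-20) and Orm2 (3.06, 2.6e-14). It was lower at day 3 for Gbp8 (-4.93, 5.0e-30), Ubd (-3.21, 2.5e-20), Ccl5 (-2.83, 1.0e-18), Cxcl9 (-2.82, 3.3e-22) and Gbp4 (-2.80, 6.4e-25).

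Between #8520 and the mean of the other 3 tumours at 6 h, the beam difference was higher in #8520 for Gbp8 (5.41, adjusted p = 1.2e-28), Cxcl9 (3.99, 7.1e-26) and Ubd (3.91, 6.0e-21). It was lower for Mstn (-3.76, 2.1e-16), Mylk4 (-3.40, 8.0e-19) and Retnla (-3.11, 3.5e-04).

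At day 1 it was higher in #8520 for the muscle genes Pvalb (5.33, adjusted p = 1.5e-30), Myh4 (4.65, 1.1e-21) and Xirp1 (4.05, 3.2e-22). It was lower for Gbp8 (-4.74, 3.4e-26), Acod1 (-4.12, 1.4e-18) and Calhm6 (-3.82, 1.2e-18).

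At day 3 it was higher in #8520 for the lectins Cd209f (2.13, adjusted p = 9.4e-12) and Cd209c (1.75, 1.9e-07) and for Smad6 (1.96, 6.1e-06). It was lower for Apoc2 (-4.14, 2.7e-22), Retnlg (-3.82, 8.4e-24) and Jchain (-3.63, 7.5e-16).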

How the results depend on the processing

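With 2 arrays a group, an unstated background step and day 1 gamma arrays of another numbering, small differences and dim genes are the least secure, and the untreated gap between arms enters every beam difference. Of the 193 gene results each setting could give, 192 kept their direction and their side of the threshold after quantile normalization, 192 after median centring, 193 with an offset, 190 with no filter on dim genes, 193 with a trended robust prior and 130 against a 1.5-fold null, where 63 no longer passed. With the mean of all probes 190 of 192 did, on the 16 arrays alone 172 of 175, with the dimmest 50% left out 126 of 126, and without 1 array 1877 of 1927. In the direct difference 132 of 155 did and 3 reversed: Espl1 at 6 h (0.059), Adgre1 at day 1 (0.13) and Endou at day 3 (-1.36). That alternative leaves out the untreated arrays and keeps any standing difference between the arms.

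The number of genes that passed depended on the setting. Against a 1.5-fold null it was 231 at 6 h, 451 at day 1, 9 at day 3, 240 between day 3 and 6 h, 149 between untreated arms, and 139, 484 and 316 against other tumours at 6 h, day 1 and day 3. In the direct difference it was 5905, 7489 and 5333 at the 3 times. With gamma rays of 50 Gy in place of 30 Gy, so that the doses no longer match, it was 4363, 7688 and 4857. With the dimmest 50% left out, and so fewer genes tested, it was 555 at day 3, 872 between day 3 and 6 h, 3132 between untreated arms and 1021 against other tumours at 6 h.

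Leaving out 1 array gave 1788 to 2470 genes at 6 h, 3224 to 5012 at day 1 and 475 to 848 at day 3, lowest without replicate 2 of the day 3 carbon arrays (475), replicate 1 of the day 3 gamma arrays (484) and replicate 1 of the untreated gamma arm (549). It gave 989 to 1209 between day 3 and 6 h, 3367 to 3685 between untreated arms, and 1136 to 1610, 2878 to 4568 and 1775 to 2317 against other tumours at the 3 times.

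Same-numbered arrays did not deviate together (correlations of -0.146 to 0.093 over 9 pairs, without the day 1 gamma arrays). This cannot show whether the numbers pair the samples, which the labels do not say. With the number as a replicate block on the 16 arrays, 533 genes passed at day 3, against 678 on the same arrays without the block and 882 in the model of all arrays, so that both choices lowered the count, and 101 of 104 gene results kept their side of the threshold.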
